A study of Homo sapiens with 30 samples.

Results

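The RNA-seq of 5637 cells was read for 10 enzymes of the glycolytic pathway, namely HK1, HK2, GPI, PFKP, ALDOA, PGK1, PGAM1, ENO1, PKM and LDHA. They were taken by symbol from the overexpression and knockdown count tables, of 56303 genes each, and by Ensembl identifier from the RBPMS knockout table of 60612 genes. All 10 had a row of their own in the 3 tables and all 10 passed the filter on low counts in every comparison. With RBPMS knocked out, 9 of the 10 mRNAs were higher than in control cells in both knockout lines. There, 36.1% and 38.5% of all genes tested were called in either direction, 17.9% and 19.3% as higher. PGK1 in KO2 was only 1.07-fold, however, and rested on single libraries. With the siRNA siANKRD10-2, 7 of the 10 were lower, led by HK2, PGK1 and LDHA. There, 36.3% of all genes tested were called in either direction, 18.7% as lower.

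Glycolysis splits glucose into pyruvate in the cytosol and yields ATP and NADH. Hexokinases (HK1, HK2) trap glucose as glucose 6-phosphate, GPI turns it into fructose 6-phosphate, and phosphofructokinase (PFKP is its platelet-type form) commits it to breakdown. Aldolase A (ALDOA) cuts the sugar into trioses, PGK1 makes ATP, PGAM1 and ENO1 rearrange the remaining acid, PKM makes ATP and pyruvate, and LDHA reduces pyruvate to lactate. Tumor cells often run this route to lactate even where oxygen is at hand. MYC and the hypoxia-inducible factors are known to act on several of these genes.

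5637 is a human bladder carcinoma cell line. The knockout experiment compared lines KO1 and KO2, each made with an sgRNA of its own against RBPMS, an RNA-binding protein, with control groups labelled WT1 and WT2. The study expanded its knockout populations from single clones, so an effect of the clone and an effect of the knockout cannot be told apart. The overexpression experiment compared cells given plasmids for ANKRD10-1 or ANKRD10-2, splice forms of the ankyrin repeat protein ANKRD10, with Vector. The knockdown experiment compared siANKRD10-1 and siANKRD10-2 with siNC, a control siRNA. Each of the 10 groups had 3 libraries, 30 in all. The labels give only 5637 cells for the overexpression and knockdown libraries. The study's text places ANKRD10-2 knockdown and ANKRD10-1 overexpression in RBPMS knockout cells, and ANKRD10-1 knockdown and ANKRD10-2 overexpression in 5637 cells. The labels do not settle the background of any of these groups or of their controls. RBPMS lay between 3.57 and 6.28 CPM (reads of a gene for every 1000000 counted in its library) in all 9 overexpression libraries and between 4.53 and 5.87 CPM in all 9 knockdown libraries. The labels do not say whether libraries of a group came from separate cultures, so the p-values measure only the spread between these libraries, which may be technical.

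Values are read counts scaled to CPM by a library's TMM-scaled total, and they were compared only within a table. Total counts ranged from 44593108 to 69723937 in the knockout table, from 31736779 to 47493499 in the overexpression table and from 28511029 to 32784584 in the knockdown table. At the level of the whole gene, the targeted genes moved in the direction of their labels. RBPMS was 0.368-fold in KO1 and 0.470-fold in KO2, with mRNA still counted in every library. ANKRD10 was also lower in the knockouts, 0.443-fold in KO1 (adjusted p = 6.55e-08) and 0.590-fold in KO2 (adjusted p = 3.98e-08). The ANKRD10 count, which sums the splice forms, was 1.59-fold with ANKRD10-1, 1.32-fold with ANKRD10-2, 0.845-fold with siANKRD10-1 and 0.841-fold with siANKRD10-2. Between siANKRD10-2 and siANKRD10-1 its log2 fold change was -0.002 ± 0.060 (edgeR, adjusted p = 0.985). The summed count therefore does not show which splice form each siRNA lowered. Epithelial markers fitted the label, with 11 or 12 of 14 at a mean of 1 CPM or more and a summed level between 3916 and 7132 CPM. Of the other cell types, 6 leukocyte markers summed to between 0.699 and 24.3 CPM, 3 endothelial markers to between 1.13 and 3.05 CPM and 4 fibroblast markers to between 28.0 and 52.6 CPM.

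In control cells the enzymes from the aldolase step on had the higher mRNA values per kilobase of exon. Per kilobase of exon, WT1 cells held ENO1 at 293.9 CPM, PKM at 172, LDHA at 162, PGAM1 at 115, PGK1 at 100.2 and ALDOA at 65.6. GPI followed at 29.4, PFKP at 21.4, HK1 at 12.4 and HK2 at 4.13 CPM per kilobase. Every neighbouring pair in this order had library ranges that did not overlap in WT1. WT2 had the same order, but its lowest PKM and highest LDHA libraries both stood at 164.3 CPM per kilobase. This pair was thus not clearly apart in WT2, while the other neighbours there did not overlap. The order rests on summed exon lengths, an error of which the library ranges do not measure. Before that division PKM stood above ENO1 in WT1 (1476 against 1163 CPM, with 8571 and 3958 bases of exon). ENO1 was also first in Vector (475 CPM per kilobase) and in siNC (266). In Vector, PFKP, HK1 and HK2 lay close together (26.4, 25.8 and 23.8 CPM per kilobase), and each overlapped its neighbour. In siNC, PKM overlapped LDHA and HK1 overlapped PFKP. The 10 mRNAs together took 0.544% ± 0.005 (SD, n = 3) of all counts in WT1 and 0.800% ± 0.014 in KO1, against 0.539% ± 0.016 in WT2 and 0.613% ± 0.004 in KO2. They took 0.399% ± 0.008 in siNC, 0.405% ± 0.006 in siANKRD10-1 and 0.324% ± 0.009 in siANKRD10-2, and 0.514% ± 0.017 in Vector, 0.485% ± 0.001 in ANKRD10-1 and 0.564% ± 0.011 in ANKRD10-2.

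**Figure D1:**
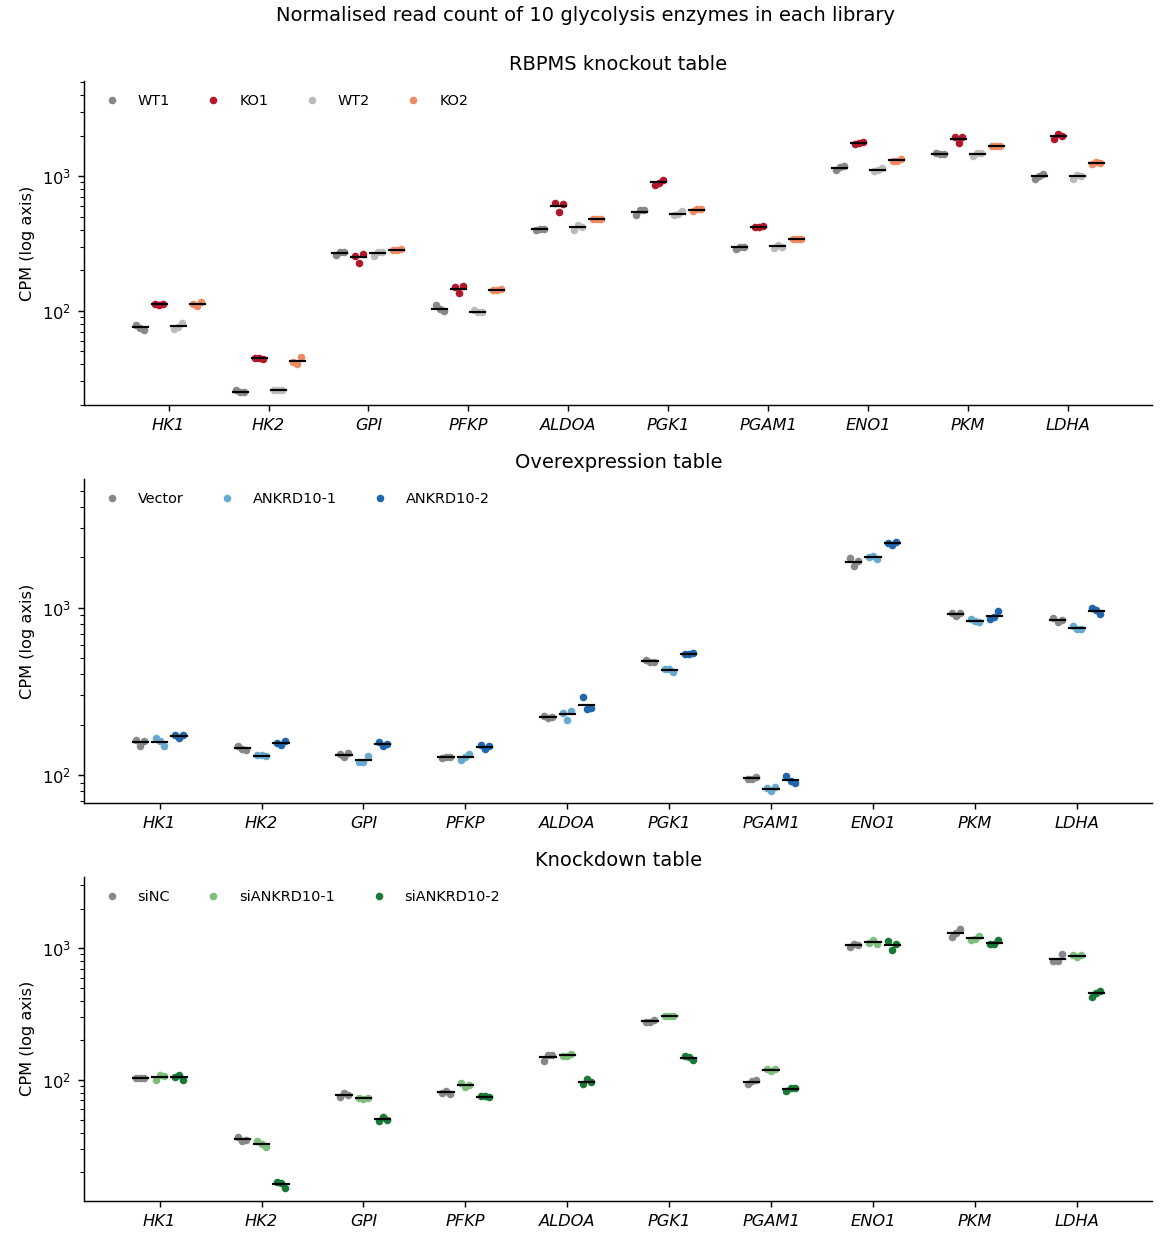
Normalised read count (CPM, log axis) of each enzyme in each of the 30 libraries, by table. Points are libraries and black bars are group means (n = 3). LDHA has a mean of 1007 CPM in WT1 and 1985 CPM in KO1, and HK2, PGK1 and LDHA of siANKRD10-2 lie below both other knockdown groups.

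The promoters of HK2, LDHA and PGK1 are shown because these genes carried the 3 largest changes under siANKRD10-2. The windows run from 250 bases before to 50 bases after a transcript start listed by RefSeq (GRCh38.p14, all + strand). Capitals mark CACGTG, the E-box that MYC and MAX dimers are known to bind, and ACGTG or its reverse complement CACGT, the core of the hypoxia response element. ACGTG lies within CACGTG, so every CACGTG is also counted as ACGTG on both strands.
HK2 second listed start, chr2:74834920-74835219: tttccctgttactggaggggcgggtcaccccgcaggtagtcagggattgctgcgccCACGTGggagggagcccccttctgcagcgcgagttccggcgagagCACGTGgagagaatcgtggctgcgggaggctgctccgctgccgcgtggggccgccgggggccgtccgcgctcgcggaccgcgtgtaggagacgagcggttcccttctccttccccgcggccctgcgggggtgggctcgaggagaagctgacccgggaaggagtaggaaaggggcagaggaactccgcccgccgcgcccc
LDHA first listed start, chr11:18394313-18394612: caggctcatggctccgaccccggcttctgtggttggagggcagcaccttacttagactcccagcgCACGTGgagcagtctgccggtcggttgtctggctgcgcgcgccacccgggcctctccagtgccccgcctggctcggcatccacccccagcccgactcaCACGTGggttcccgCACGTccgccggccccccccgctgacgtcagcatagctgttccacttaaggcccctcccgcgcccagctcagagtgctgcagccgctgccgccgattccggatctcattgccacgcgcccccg
PGK1 listed start, chrX:78103998-78104297: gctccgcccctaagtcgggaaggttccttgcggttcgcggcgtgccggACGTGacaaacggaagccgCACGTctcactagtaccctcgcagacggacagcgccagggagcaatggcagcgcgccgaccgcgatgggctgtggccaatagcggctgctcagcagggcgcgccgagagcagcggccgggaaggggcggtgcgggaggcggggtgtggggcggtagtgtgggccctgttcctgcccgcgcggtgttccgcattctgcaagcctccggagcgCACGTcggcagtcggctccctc
The HK2 and LDHA windows shown each held 2 copies of CACGTG, and each is 1 of 2 listed windows of its gene. The other HK2 window, at the first listed start, held no CACGTG and 2 copies of ACGTG. The other LDHA window, at the second listed start, held neither. The PGK1 window held no CACGTG but 3 copies of ACGTG. All 10 enzymes matched a window by symbol, 23 windows in all. CACGTG was in a window of 3 of them (HK2, LDHA and ALDOA), in 3 of the 23 windows, against 7.26% of 35116 windows of all genes. ACGTG was in a window of 6, adding GPI, PFKP and PGK1, in 9 of the 23 windows, against 21.4% of all windows. Counted by gene, 8.77% of 27305 genes had CACGTG in a window and 24.9% had ACGTG. The 10 enzymes had more listed windows per gene than all genes, which gives them more room for a match. HK1, PGAM1, ENO1 and PKM held neither in these windows. A match of letters is a description of the window, and binding was not measured here.

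The first comparison asked what became of the pathway when RBPMS was lost. In KO1, 9 of the 10 enzymes were higher than in WT1 and GPI was the exception (edgeR's quasi-likelihood test, adjusted p under 0.05, where 36.1% of all 17865 genes tested were called in either direction). Such shares count both directions throughout, and 17.9% of all genes were called higher in KO1. The median log2 fold change of the 10 enzymes was 0.58, beside -0.002 over all genes tested. In KO2 the same 9 were called higher against WT2, where 38.5% of 18267 genes were called, 19.3% as higher. The median of the 10 was 0.215, beside -0.016. Epithelial markers summed to between 4242 and 4744 CPM over all 12 libraries, but single markers moved, with 4 higher and 3 lower of 12 tested in KO1 and 4 higher and 5 lower of 13 in KO2, GATA3 the lowest among those of KO1 (-1.35 ± 0.07 on the log2 scale, -0.76 ± 0.05 in KO2). Fibroblast markers summed to between 32.4 and 38.1 CPM in KO1 against 48.4 to 52.6 in WT1, and to between 49.3 and 51.8 CPM in KO2 against 50.6 to 51.8 in WT2. Only 1 of these 4 markers reached a mean of 1 CPM in this experiment. Of the 2 tested, 1 was higher and 1 lower in KO1, and 0 were called in KO2. Leukocyte markers summed to between 1.52 and 2.43 CPM in the knockouts against 0.699 to 1.40 in the controls, with CD3E and PTPRC at 0. The part of these lists in the enzyme values was not tested. Less RNA per cell and fewer cells of a kind cannot be told apart in bulk RNA. With a fold of at least 1.5 also asked for, 4 enzymes were called in KO1 (HK2, PGK1, ENO1 and LDHA) and 1 in KO2 (HK2). Under this rule 2195 of all 17865 genes tested were called in KO1 and 2212 of 18267 in KO2. The count of 1 of 10 in KO2 was thus near the share of all genes.

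Hexokinase 2 (HK2, chr2:74833981-74893359, + strand) is the inducible form that sits on the outer mitochondrial membrane in many tumor cells. It counted 25.6, 24.9 and 24.7 CPM in WT1 and 44.8, 44.2 and 43.5 CPM in KO1. It counted 25.6, 25.6 and 25.7 CPM in WT2 and 41.2, 40.2 and 45.3 CPM in KO2. Both knockout lines lay clear of their controls, with log2 fold changes of 0.82 ± 0.06 (SE, adjusted p = 2.59e-06) and 0.72 ± 0.06 (adjusted p = 1.32e-06). The share of all genes without overlap was not counted. HK1 (chr10:69269984-69401882, + strand), the form most tissues express, went from between 72.1 and 78.2 CPM in WT1 to between 111 and 113 in KO1, a 1.49-fold difference. In KO2 it lay between 109 and 115 CPM against 73.4 to 80.4 in WT2, 1.46-fold. PFKP (chr10:3066333-3137712, + strand) was 1.40-fold in KO1 and 1.45-fold in KO2. All 3 rose by between 1.40-fold and 1.76-fold in both lines.

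The enzymes of the later steps rose more in KO1 than in KO2. LDHA (chr11:18394388-18408425, + strand) counted 961, 1014 and 1046 CPM in WT1 and 1909, 2052 and 1994 CPM in KO1, a log2 fold change of 0.98 ± 0.05 (adjusted p = 1.25e-07). It counted 963, 1020 and 1012 CPM in WT2 and 1230, 1270 and 1257 CPM in KO2, a log2 fold change of 0.32 ± 0.03 (adjusted p = 3.99e-06). All 3 libraries of each knockout lay above all 3 of its control, and the share of all genes without overlap was not counted. PGK1 (chrX:78065188-78129296, + strand), the first ATP-making enzyme of the pathway, counted 512, 558 and 559 CPM in WT1 and 867, 895 and 940 in KO1, 1.66-fold. In KO2 it was only 1.07-fold, from 512, 525 and 548 CPM in WT2 to 551, 574 and 571 (log2 fold change 0.09 ± 0.03, adjusted p = 0.0433). The groups did not overlap, but the PGK1 call in KO2 was lost without WT2 replicate 1, WT2 replicate 2, KO2 replicate 2 or KO2 replicate 3 (adjusted p from 0.107 to 0.156), under total count scaling (0.254), without the filter (0.178), with all groups in the fit (0.0937) and against all WT libraries (0.121).

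ALDOA (chr16:30053090-30070457, + strand), ENO1 (chr1:8861002-8879249, - strand), PGAM1 (chr10:97426160-97433441, + strand) and PKM (chr15:72199029-72231822, - strand) showed the same order. ALDOA was 1.49-fold in KO1 and 1.15-fold in KO2. ENO1 was 1.52-fold and 1.17-fold, PGAM1 1.42-fold and 1.13-fold, and PKM 1.28-fold and 1.15-fold. For each of these the 3 knockout libraries lay above the 3 control libraries in both lines, for example PGAM1 at 416 to 426 CPM in KO1 against 290 to 300.4 in WT1. The share of all genes without overlap was not counted.

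GPI (chr19:34359480-34402156, + strand), which interconverts the hexose phosphates, was called in neither line. It counted 261, 272 and 271 CPM in WT1 and 256, 228 and 263 CPM in KO1, and these groups overlapped. In KO2 its libraries, between 282.5 and 286.0 CPM, lay above those of WT2, between 256 and 276. Its log2 fold change was -0.11 ± 0.06 in KO1 (adjusted p = 0.165) and 0.08 ± 0.04 in KO2 (adjusted p = 0.0869). DESeq2 called GPI higher in KO2 (adjusted p = 0.039). GPI is the one member on chromosome 19, where the median log2 fold change of 1197 genes tested was -0.379 in KO1, with 108 genes higher and 553 lower. In KO2, 259 of 1234 genes of this chromosome were higher and 242 were lower, and their median was -0.001. The part of the chromosome in the GPI value was not tested.

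The difference between the lines was tested itself, as the KO1 change minus the KO2 change over the 12 libraries of the table. It was called for 6 of the 10 enzymes, all with the larger rise in KO1, where 23.3% of 19189 genes were called, 11.2% with a difference above 0. The excess in KO1 was 0.65 ± 0.05 on the log2 scale for LDHA (adjusted p = 3.01e-07), 0.63 ± 0.06 for PGK1 (1.32e-06), 0.38 ± 0.05 for ENO1 (2.46e-05), 0.37 ± 0.07 for ALDOA (0.000974) and 0.32 ± 0.05 for PGAM1 (1e-04). For PKM it was 0.16 ± 0.05 (adjusted p = 0.0449). This PKM call was lost in 10 of the 12 fits that left out a library, all but those without KO1 replicate 2 or WT2 replicate 1 (adjusted p from 0.0691 to 0.12), under RLE size factors (0.053) and without the filter (0.09). HK1 (0.02 ± 0.07), HK2 (0.10 ± 0.08) and PFKP (-0.06 ± 0.07) were not called. GPI differed by -0.19 ± 0.07 (adjusted p = 0.0525), which passed under RLE size factors (0.0434), by DESeq2 (0.0164) and without KO1 replicate 3 (0.0186) or WT2 replicate 2 (0.0476).

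**Figure D2:**
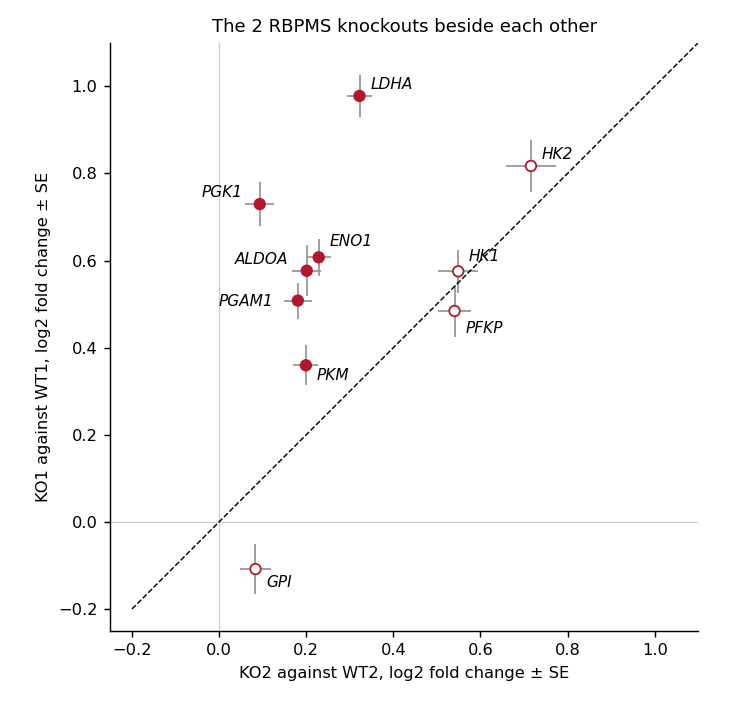
Log2 fold change ± SE of the 10 enzymes in KO1 against WT1 (vertical) and KO2 against WT2 (horizontal), with the line of equal change dashed and filled points for a difference between the lines at adjusted p under 0.05. HK1, HK2 and PFKP lie near the line, while LDHA (0.98 in KO1, 0.32 in KO2) and PGK1 (0.73 and 0.09) lie farthest above it.

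The control groups of the 2 knockouts gave a measure of how far untreated cells differ. Between WT2 and WT1, 0 of the 10 enzymes were called by edgeR, where 1.23% of 18335 genes were called. The count was 0 also at an unadjusted p under 0.05 and 0 by DESeq2. The library ranges overlapped for all 10, and the largest difference was that of PFKP at -0.07 ± 0.05 on the log2 scale.

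The knockdown experiment asked what an siRNA against each ANKRD10 splice form does. With siANKRD10-2, 7 of the 10 enzymes were lower than with siNC, where 36.3% of 18924 genes were called, 18.7% as lower. Their median log2 fold change was -0.426, beside 0.001 over all genes tested. HK2 counted 36.9, 34.7 and 34.9 CPM with siNC and 16.7, 16.5 and 15.2 CPM with siANKRD10-2. It fell by 1.14 ± 0.07 on the log2 scale (edgeR, adjusted p = 3.53e-12), which ranked 380 by the size of the change among all genes tested. PGK1 counted 276, 278 and 286 CPM with siNC and 153, 149 and 142 CPM with siANKRD10-2, 0.529-fold (adjusted p = 7.47e-13). LDHA counted 797, 803 and 903 CPM against 429.6, 459.7 and 474 CPM, 0.545-fold (adjusted p = 8.26e-12). None of these 3 overlapped between the groups, and the share of all genes without overlap was not counted. HK2 and PGK1 were also among the genes that the study picked for its own tests of MYC targets, so their fall here is no independent pick. Markers of epithelial cells moved with the same group: 8 of 12 tested were lower with siANKRD10-2, and the 14 listed summed to between 4106 and 4242 CPM against 6696 to 7132 with siNC, with UPK3A at 0 in every knockdown library. Of 6 leukocyte markers, which summed to between 9.62 and 10.6 CPM against 12.5 to 14.4 with siNC, CD3E was at 0. Fibroblast markers summed to between 32.4 and 34.6 CPM against 28.0 to 29.4, with 1 of 3 tested called, as higher. The part of these lists in the enzyme values was not tested.

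ALDOA and GPI fell by less. ALDOA counted 139, 154 and 156 CPM with siNC and 92.9, 101.4 and 96.3 CPM with siANKRD10-2, 0.649-fold (adjusted p = 3.33e-09). GPI counted 74.0, 79.3 and 76.8 CPM and 49.2, 52.5 and 49.5 CPM, 0.658-fold (adjusted p = 4.75e-09). Both sets of libraries were clear of each other, and the share of all genes without overlap was not counted. PKM was 0.842-fold, with 1228, 1295 and 1394 CPM against 1072, 1079 and 1147 CPM. PGAM1 was 0.882-fold (adjusted p = 0.00961), and its call was lost without siANKRD10-2 replicate 1 (adjusted p = 0.0612).

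HK1, PFKP and ENO1 were not called with siANKRD10-2. HK1 counted 104.2 ± 0.265 CPM (SD, n = 3) with siNC and 104.9, 109.1 and 100.6 CPM with siANKRD10-2, a log2 fold change of 0.01 ± 0.05. ENO1 counted 1025, 1071 and 1064 CPM and 1143, 967 and 1069 CPM, a log2 fold change of 0.01 ± 0.06. Both groups overlapped for these 2. PFKP lay between 77.8 and 83.3 CPM with siNC and between 73.8 and 76.0 CPM with siANKRD10-2 (log2 fold change -0.10 ± 0.05, adjusted p = 0.153).

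The other siRNA gave a different picture. With siANKRD10-1, 2 of the 10 enzymes were called, both higher, where 10.6% of 18785 genes were called, 5.08% as higher. PGAM1 counted 93.9, 97.6 and 99.6 CPM with siNC and 121, 118 and 122 CPM with siANKRD10-1, 1.24-fold (adjusted p = 0.0012). PFKP was 1.14-fold (89.1 to 94.7 CPM, adjusted p = 0.0347). The PFKP call was lost without siNC replicate 1, 2 or 3 or siANKRD10-1 replicate 1 or 3 (adjusted p from 0.0802 to 0.176). PFKP did not overlap with siNC, and neither did HK2, GPI, PGK1 and ENO1, which were not called. The share of all genes without overlap was not counted. HK2 lay between 31.1 and 34.3 CPM, a log2 fold change of -0.12 ± 0.07 (adjusted p = 0.288). Epithelial markers summed to between 5945 and 6289 CPM against 6696 to 7132 with siNC (4 of 12 called, all lower). Fibroblast markers summed to between 31.1 and 32.9 CPM against 28.0 to 29.4 (0 of 3 called). The part of these lists was not tested.

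Both siRNAs were compared with the same siNC libraries, so they were also set against each other. Against siANKRD10-1, siANKRD10-2 gave 7 lower enzymes, where 37% of 18832 genes were called, 18.8% as lower. The log2 fold changes were -1.05 ± 0.05 for PGK1, -1.02 ± 0.07 for HK2, -0.95 ± 0.05 for LDHA, -0.67 ± 0.05 for ALDOA, -0.52 ± 0.06 for GPI, -0.49 ± 0.05 for PGAM1 and -0.29 ± 0.05 for PFKP. The largest adjusted p among them was 0.000182, for PFKP. PKM (-0.12 ± 0.05, adjusted p = 0.0721) passed without siANKRD10-1 replicate 2 (0.0465) or siANKRD10-2 replicate 3 (0.0371).

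The overexpression experiment asked the same of added splice forms, and its differences were smaller. With ANKRD10-2, 6 of the 10 enzymes were higher than with Vector, where 19.9% of 20177 genes were called, 10.7% as higher. ENO1 changed most, from 1976, 1773 and 1891 CPM with Vector to 2426, 2360 and 2479 CPM, 1.29-fold (adjusted p = 0.000153). ALDOA was 1.18-fold, GPI and PFKP 1.16-fold, LDHA 1.14-fold and PGK1 1.11-fold. LDHA counted 864, 824 and 844 CPM with Vector and 989.6, 964 and 919 CPM with ANKRD10-2. PGK1 counted 489, 476 and 473 CPM and 527, 527 and 534 CPM. For these 6 enzymes the groups did not overlap, nor did they for HK1 and HK2, and the share of all genes without overlap was not counted. PGAM1 and PKM overlapped, with log2 fold changes of -0.03 ± 0.05 and -0.04 ± 0.05. HK2 (0.11 ± 0.05, adjusted p = 0.111) was not called. Of 12 epithelial markers tested, 8 were also higher with ANKRD10-2, and the 14 listed summed to between 4453 and 4978 CPM against 3916 to 4037 with Vector. Leukocyte markers summed to between 17.8 and 19.01 CPM against 22.4 to 24.3, with none of the 6 at 0 throughout. The part of either list in the enzyme values was not tested.

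This count rested on the scaling and on single libraries. Under total count scaling only ENO1 was called, the calls of GPI (adjusted p = 0.0532), PFKP (0.0589), ALDOA (0.0656), PGK1 (0.313) and LDHA (0.117) were lost, and the share of higher among all calls with ANKRD10-2 was 27.6% in place of 53.5%. Without Vector replicate 2 the count was 3, with ALDOA (adjusted p = 0.0518), PGK1 (0.0857) and LDHA (0.0538) lost, and the PGK1 call was also lost without Vector replicate 1, Vector replicate 3 or ANKRD10-2 replicate 3 (0.0613, 0.0932 and 0.0818). HK1 (log2 fold change 0.13 ± 0.05, adjusted p = 0.0866) was called with the replicate number as a block (0.0456).

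With ANKRD10-1, 3 of the 10 enzymes were called, all lower, where 6.31% of 20457 genes were called, 2.81% as lower. PGAM1 counted 94.6, 95.1 and 96.8 CPM with Vector and 83.9, 80.6 and 84.5 CPM with ANKRD10-1, 0.869-fold (adjusted p = 0.0112). PGK1 went to 430, 428 and 412 CPM, 0.883-fold (0.0148), and LDHA to 779, 743 and 744 CPM, 0.895-fold (0.032). These 3 did not overlap with Vector, and neither did HK2 and PKM, and the share of all genes without overlap was not counted. Epithelial markers summed to between 4221 and 4382 CPM against 3916 to 4037 with Vector (4 of 12 called, all higher). Leukocyte markers summed to between 16.8 and 18.3 CPM against 22.4 to 24.3 (1 of 2 tested called, as lower). Fibroblast markers summed to between 49.2 and 51.6 CPM against 44.4 to 46.1 (0 of 4 called). The part of these lists in the enzyme values was not tested. Under total count scaling and by DESeq2 HK2 and PKM were called lower too, and the share of higher among all calls was 30.8% under total count scaling in place of 55.5%. The count was 1 without Vector replicate 1 and 1 without ANKRD10-1 replicate 2. The LDHA call was lost without Vector replicate 1 or any ANKRD10-1 library (adjusted p from 0.0541 to 0.137), the PGK1 call without Vector replicate 1 (0.0805) and the PGAM1 call without ANKRD10-1 replicate 2 (0.0652).

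Set against ANKRD10-1 directly, ANKRD10-2 gave 6 higher enzymes, where 7.26% of 20052 genes were called, 4.15% as higher. The log2 fold changes were 0.34 ± 0.05 for LDHA, 0.32 ± 0.05 for PGK1, 0.32 ± 0.05 for GPI, 0.28 ± 0.05 for ENO1, 0.25 ± 0.05 for HK2 and 0.20 ± 0.05 for PFKP. The HK2 libraries lay at 132, 131 and 129 CPM with ANKRD10-1 and at 155, 151 and 160 CPM with ANKRD10-2. The groups did not overlap for any of the 10 enzymes, called or not, but the share of all genes without overlap was not counted. The PFKP call (adjusted p = 0.0196) was lost under total count scaling (0.0586) and without ANKRD10-1 replicate 1 (0.125), ANKRD10-1 replicate 2 (0.0797) or ANKRD10-2 replicate 3 (0.0673). The share of higher among all calls was 38.4% under total count scaling in place of 57.3%. PGAM1 (0.17 ± 0.05, adjusted p = 0.0547) and ALDOA (0.19 ± 0.06, adjusted p = 0.0731) missed the threshold but passed it by DESeq2 (0.0303 and 0.0471).

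**Figure D3:**
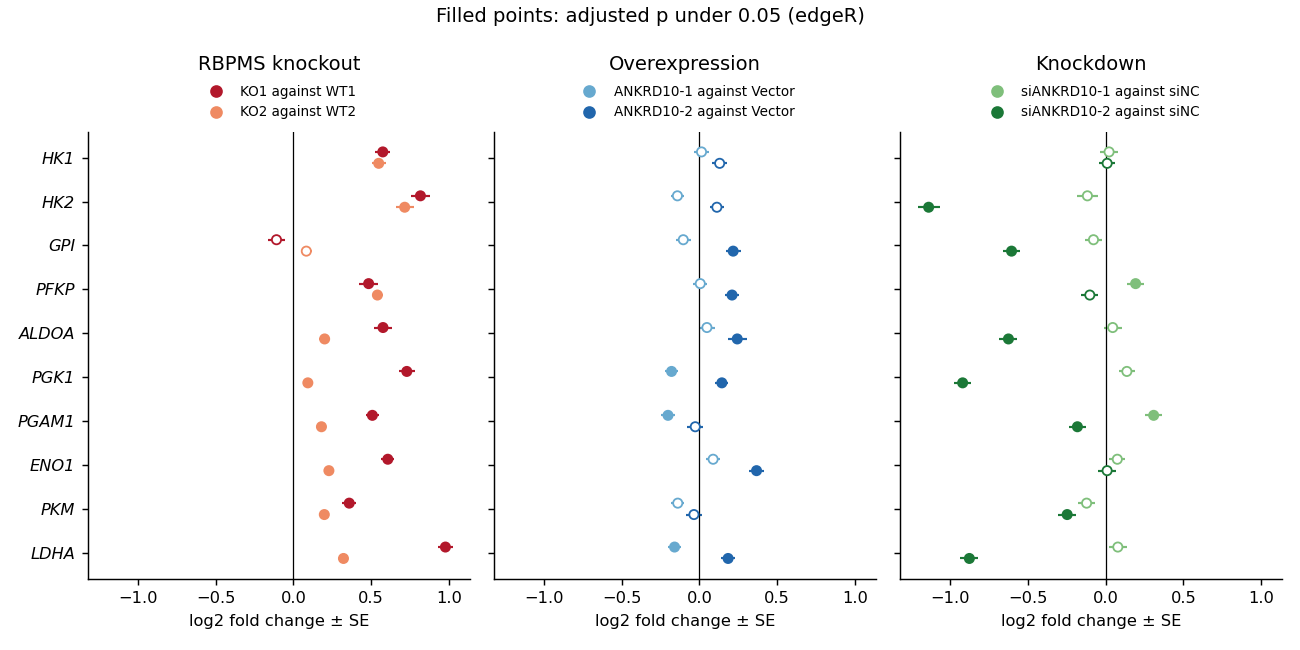
Log2 fold change ± SE of the 10 enzymes in the 6 comparisons with a control group, by experiment, with filled points where the adjusted p was under 0.05 (edgeR). All called knockout points lie to the right of 0 and all called siANKRD10-2 points to the left, and the overexpression points lie within 0.37 of 0.

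Isoenzyme balance was read as a ratio within each library, which does not depend on the scaling between libraries. HK2 stood at 0.341 ± 0.013 (SD, n = 3) of HK1 per base of exon with siNC, at 0.311 ± 0.028 with siANKRD10-1 and at 0.154 ± 0.005 with siANKRD10-2. The siANKRD10-2 libraries (0.151 to 0.160) lay below all siNC libraries (0.332 to 0.356). The ratio went from 0.334 ± 0.007 in WT1 to 0.395 ± 0.005 in KO1 and from 0.336 ± 0.015 in WT2 to 0.377 ± 0.014 in KO2, with no overlap. In the overexpression experiment it stood at 0.922 ± 0.039 with Vector, 0.909 ± 0.014 with ANKRD10-2 and 0.828 ± 0.033 with ANKRD10-1. LDHB is the heart-type subunit of lactate dehydrogenase. LDHA stood at 1.13 ± 0.04 of LDHB per base in WT1 and at 1.85 ± 0.04 in KO1, against 1.21 ± 0.05 in WT2 and 1.31 ± 0.02 in KO2. With siANKRD10-2 it stood at 0.609 ± 0.030, against 1.03 ± 0.02 with siNC. With ANKRD10-2 the ratio was lower than with Vector (1.24 ± 0.05 against 1.40 ± 0.04) although LDHA was higher, and LDHB was 0.36 higher on the log2 scale. With ANKRD10-1 it was lower still, at 1.07 ± 0.02.

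The neighbouring steps were described by lists of other pathway genes, whose counts stand beside shares of all genes called of 36.1% in KO1, 38.5% in KO2, 6.31% with ANKRD10-1, 19.9% with ANKRD10-2, 10.6% with siANKRD10-1 and 36.3% with siANKRD10-2. Of the 20 other glycolysis enzymes, 12 were tested in KO1, with 5 higher and 3 lower. TPI1, the triose isomerase, was 0.34 ± 0.05 higher on the log2 scale, and ENO2 (-0.55 ± 0.12) and BPGM (-0.36 ± 0.09) were lower. The largest value, HKDC1 at 2.63 ± 0.44, rose from only 0.274 to 1.74 CPM. In KO2, 3 were higher and 2 lower of 12, with ENO2 at -0.82 ± 0.09, BPGM at -0.68 ± 0.09, ADPGK at 0.32 ± 0.05 and ALDOC, under 2 CPM in every library, at 1.41 ± 0.39. With siANKRD10-2, 2 were higher and 2 lower of 14, among them TPI1 at -0.38 ± 0.05. With ANKRD10-2, 5 of 14 were called, all higher, with HKDC1 at 1.17 ± 0.11 (3.97 to 8.87 CPM) and LDHB at 0.36 ± 0.05. Of these genes 2 of 15 were called with ANKRD10-1 (LDHB 0.23 ± 0.04 and GAPDH 0.19 ± 0.04) and 2 of 14 with siANKRD10-1 (ADPGK 0.34 ± 0.06 and PFKL 0.31 ± 0.06), all higher.

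Transporters move glucose in and lactate out. SLC2A1 (GLUT1), the main glucose carrier of many tumor cells, rose from 86.8 ± 2.7 CPM (SD, n = 3) in WT1 to 197 ± 16 CPM in KO1, and the lactate exporter SLC16A3 (MCT4) was 0.83 ± 0.07 higher on the log2 scale. In KO1, 4 transport genes were higher and 2 lower of 8, the lower ones being SLC16A7 (-0.29 ± 0.09) and BSG (-0.27 ± 0.04). In KO2, 5 of 9 were called, all higher, led by SLC16A3 (0.61 ± 0.04) and SLC16A1 (0.55 ± 0.04). With siANKRD10-2, 4 of 8 were called, all lower, led by SLC16A7 (-0.80 ± 0.17) and SLC2A1 (-0.70 ± 0.06, 90.7 ± 5.7 to 56.0 ± 4.2 CPM). With siANKRD10-1, SLC16A1 (-0.67 ± 0.05) and SLC16A7 (-0.58 ± 0.15) were lower. With ANKRD10-1 SLC2A3 was lower (-0.38 ± 0.07), and with ANKRD10-2 BSG (0.19 ± 0.05) and SLC16A1 (0.14 ± 0.05) were higher and SLC2A6 (-0.63 ± 0.20) lower.

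PFKFB3 makes fructose 2,6-bisphosphate, the activator of phosphofructokinase. It was 0.50 ± 0.05 higher in KO1 and 0.47 ± 0.04 higher in KO2 on the log2 scale, and it was also called with ANKRD10-1 (-0.23 ± 0.04) and with siANKRD10-2 (0.15 ± 0.06). PFKFB4 was higher in KO1 (0.40 ± 0.10) and lower with ANKRD10-1 (-0.47 ± 0.07), TIGAR was higher in KO2 (0.41 ± 0.09) and PFKFB2 lower with siANKRD10-1 (-0.31 ± 0.09). These were all the calls among the 5 genes for enzymes of this metabolite.

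Pyruvate enters the mitochondrion through the carrier MPC1 and MPC2 and is used by pyruvate dehydrogenase, which PDK kinases switch off. Of 13 such genes, 6 were higher and 1 lower in KO1, led by PDK1 (0.97 ± 0.06, 47.4 ± 1.8 to 92.8 ± 6.3 CPM) and PDP1 (0.41 ± 0.05). In KO2, 4 were higher and 2 lower, with PDP1 at 0.68 ± 0.04 and PDHB at 0.29 ± 0.08, and PDK4 at -1.12 ± 0.21 and PDK3 at -0.31 ± 0.06. With siANKRD10-2, 3 were higher and 4 lower, with DLAT at -0.90 ± 0.09, PDK1 at -0.64 ± 0.08, PDK4 at 0.97 ± 0.21 and MPC2 at 0.89 ± 0.10. With ANKRD10-2, 4 were higher and 1 lower, with MPC1 at 0.45 ± 0.07, PDK4 at 0.26 ± 0.08 and DLAT at -0.28 ± 0.09. MPC1 was higher (0.30 ± 0.06) and PDK1 lower (-0.26 ± 0.05) with ANKRD10-1. With siANKRD10-1, PDK4 (0.64 ± 0.20) and PDP1 (0.31 ± 0.06) were higher and PDHX (-0.21 ± 0.06) lower.

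The pentose phosphate pathway draws on the same glucose 6-phosphate. Of 7 genes tested, 3 were called in KO1 and 3 in KO2, all higher, led by PGLS (0.30 ± 0.09) and PGD (0.24 ± 0.03). With siANKRD10-2, 4 were lower and 1 higher, with PGLS at -0.40 ± 0.16 and RPIA at 0.30 ± 0.11. With ANKRD10-2, 3 were called, all higher, led by TKT (0.30 ± 0.06), which was also the 1 called with ANKRD10-1 (0.27 ± 0.06). Gluconeogenesis genes were called in KO2, where PC (0.48 ± 0.08) and G6PC3 (0.22 ± 0.06) were higher and PCK2 (-0.41 ± 0.06) lower of 4 tested, and with siANKRD10-2, where PCK2 (0.35 ± 0.10) was higher of 5.

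**Figure D4:**
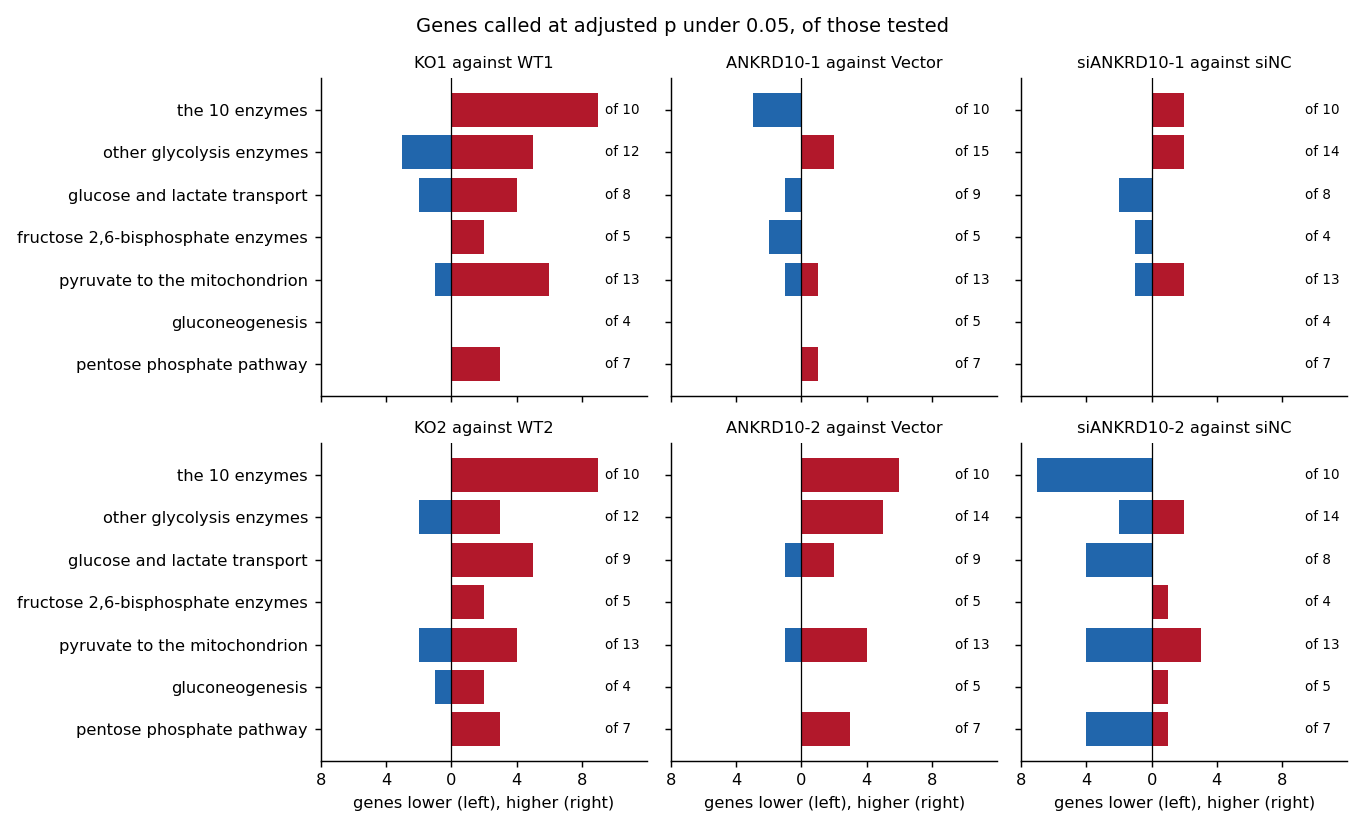
Number of genes higher (red, right) and lower (blue, left) at adjusted p under 0.05 in each comparison with a control group, for the 10 enzymes and 6 lists of other pathway genes, with the number tested at the right. In KO1 and KO2 the 10 enzymes have 9 higher, while the other glycolysis enzymes have calls in both directions.

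MYC was called in 4 of the 6 comparisons with a control group. It counted 137 ± 7 CPM (SD, n = 3) in WT1 and 184 ± 3 in KO1 (log2 fold change 0.42 ± 0.05, adjusted p = 7.32e-05), and 143 ± 9 in WT2 and 161 ± 11 in KO2 (0.17 ± 0.055, adjusted p = 0.032). It was 0.55 ± 0.06 higher with ANKRD10-2 (51.0 ± 1.5 to 74.7 ± 5.1 CPM) and fell by 0.60 ± 0.06 with siANKRD10-2 (46.7 ± 1.7 to 30.9 ± 1.7 CPM). The KO1 rise exceeded the KO2 rise by 0.25 ± 0.08 (adjusted p = 0.028). With ANKRD10-1 (0.16 ± 0.05, adjusted p = 0.0914) and siANKRD10-1 (0.08 ± 0.06, adjusted p = 0.469) it was not called. Among the 9 listed regulators 5 were higher and 2 lower in KO1, with MAX, the partner of MYC, at 0.41 ± 0.07. Log2 fold changes of the 9 ran from -0.39 to 0.42 in KO1. In KO2, 5 were higher, led by the hypoxia-inducible factor HIF1A (0.42 ± 0.03) and EPAS1 (0.36 ± 0.03), and 3 were lower. The largest change among the 9 in KO2 was a fall, at -1.06 on the log2 scale. With siANKRD10-2, 5 were lower and 1 higher. Besides MYC, the lower ones were MLXIPL (-0.56 ± 0.20), MAX (-0.44 ± 0.06), HIF1A (-0.44 ± 0.05, from 690.4, 694 and 694 CPM to 504, 496 and 529 CPM) and EPAS1 (-0.36 ± 0.06). With ANKRD10-2, 3 were called, all higher, MYC, MLX (0.23 ± 0.05) and EPAS1 (0.22 ± 0.05), and with siANKRD10-1, MLXIPL (-0.64 ± 0.19) and EPAS1 (-0.30 ± 0.06) were lower.

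Reads of the 10 genes can be shared with copies and neighbours. PGAM1 has 12 or 13 listed pseudogenes, whose counts came to at most 1.76% of the reads of PGAM1 and its pseudogenes together. ENO1 has 4, at most 2.69% in the knockdown table and at most 0.064% in the knockout table. For the other 8 the share stayed at or under 0.744%. In the GENCODE annotation of GRCh38, GPI overlaps AC092073.1 and ALDOA overlaps AC093512.2, both protein-coding and on the same strand. PFKP, ENO1 and LDHA overlap the non-coding AL451164.3, MIR6728 and AC084117.1 on the same strand, so reads there are uncertain for these 5 genes. On the opposite strand, HK1 overlaps RPS15AP28, HK2 overlaps AC019069.1, ALDOA overlaps AC093512.1 and ENO1 overlaps ENO1-AS1. Reads there are uncertain too, since it is not given whether counting used strand.

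The genes whose pattern was most like that of the 10 enzymes were named by Pearson's correlation with their mean, over 30 libraries, of log2(CPM + 0.5) minus the mean of the controls of the table. Among 7577 genes at a mean of 10 CPM or more in every table, the 5 nearest were CA2 (0.968), SLC2A1 (0.959), EIF4H (0.954), AGFG1 (0.949) and MRPL12 (0.945). The libraries fall into groups of 3 and the control libraries centre on 0, so these values describe mainly the differences between groups, and no p is given. Within the 10, LDHA was nearest to the mean of the other 9 (0.974) and GPI farthest from it (0.564).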

How the data were processed

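Poly(A) RNA was sequenced, on an Illumina NovaSeq by the study's methods and on an MGI sequencer by its reporting form. The authors trimmed reads with Cutadapt and Trimmomatic 0.36 and aligned them with HISAT2, and the submitters' notes name GRCh38, featureCounts and Subread 1.5.1, while the paper names StringTie. Whether counting used strand is not given in the sources used here. The deposited values are raw counts per gene, and all columns were used.

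Each comparison was fitted to the libraries of its own groups with edgeR 4.0.16 in R 4.3.3: filterByExpr (minimum count 10, minimum total count 15), TMM scaling, the quasi-likelihood test (prior count 0.125) and Benjamini-Hochberg adjustment over all genes tested, with calls at an adjusted p under 0.05. An exact permutation test of 3 against 3 libraries cannot go below p = 0.1. Groups without overlap stand at that floor, and the share of all genes without overlap was not counted for any comparison. The scripts were tested on simulated data. Per-kilobase values used the summed exon lengths in the deposited overexpression table.

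The 10 enzymes and the gene lists were chosen with earlier results of these data known. Of the other lists, at most 2 higher and 2 lower called genes with the largest changes were named per comparison, with RBPMS, ANKRD10 and MYC always named. Some genes of these lists are not reported here. Alternatives were RLE size factors, total count scaling, no filter, DESeq2 1.42.0, all groups in 1 fit, all WT libraries as control, a fold of at least 1.5, a replicate block and leaving out each library. Replicate numbers paired the libraries, by correlated deviations above 0.1 in all 3 pairs, for KO2 with WT2 (0.151 to 0.187) and for ANKRD10-2 with Vector (0.121 to 0.312) only, which the labels do not state.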

Additional observations from a re-analysis of the deposited data

Results flagged for a closer look

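The KO1 change against WT1 and the KO2 change against WT2 differed by the test of their difference for 6 of the 10 enzymes. The log2 fold change in KO1 was larger by 0.65 for LDHA, 0.63 for PGK1, 0.38 for ENO1, 0.37 for ALDOA, 0.32 for PGAM1 and 0.16 for PKM. The PKM difference lost its call without most single libraries, as given above. KO1 and KO2 are single-clone lines made with different sgRNAs, so clone and sgRNA cannot be told apart. No group had more than 3 libraries, so no library was tested as an outlier within its group.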

How the results depend on the processing

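Under settings other than leaving out a library, 641 recomputed log2 fold changes of single enzymes kept their direction and side of the threshold, 14 came to pass it, 51 no longer did, 39 of them by the fold rule, and 4 turned. With a fold of at least 1.5 also asked for, the count of enzymes called was 4 in KO1, 1 in KO2, 4 for siANKRD10-2 against siANKRD10-1 and 2 (PGK1 and LDHA) for the KO1 change minus the KO2 change, and it was 0 with ANKRD10-1, 0 with ANKRD10-2, 0 with siANKRD10-1 and 0 for ANKRD10-2 against ANKRD10-1. These counts of 0 stand beside 3, 6, 2 and 6 calls without the fold, 6, 8, 4 and 9 enzymes at an unadjusted p under 0.05 and 5, 6, 2 and 8 calls by DESeq2. Shares of all genes at an unadjusted p and by DESeq2 are not given for these. With siANKRD10-2 against siNC, the fold rule kept the calls of HK2, PGK1, LDHA, ALDOA and GPI and lost those of PKM and PGAM1. The fold rule asks for more by its own construction. The count of all genes called under it was 2195 in KO1, 2212 in KO2, 180 with ANKRD10-1, 761 with ANKRD10-2, 253 with siANKRD10-1, 1774 with siANKRD10-2, 256 for ANKRD10-2 against ANKRD10-1, 1847 for siANKRD10-2 against siANKRD10-1, 41 for WT2 against WT1 and 1984 for the KO1 change minus the KO2 change. WT2 against WT1 gave 88 genes without the filter and 690 by DESeq2. Total count scaling gave 5 enzymes with ANKRD10-1 and 1 with ANKRD10-2, and DESeq2 gave 5 with ANKRD10-1. The cause was not tested.

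The direction turned for values near 0 only: under total count scaling HK1 (-0.032) and PFKP (-0.039) with ANKRD10-1 and HK1 (0.017) for siANKRD10-2 against siANKRD10-1, and without the filter GPI (0.003) for WT2 against WT1. Leaving out 1 library at a time, the count of enzymes called ran from 9 to 9 in KO1, 8 to 9 in KO2, 1 to 3 with ANKRD10-1, 3 to 6 with ANKRD10-2, 1 to 2 with siANKRD10-1, 6 to 7 with siANKRD10-2, 5 to 7 for ANKRD10-2 against ANKRD10-1, 7 to 8 for siANKRD10-2 against siANKRD10-1 and 5 to 6 for the KO1 change minus the KO2 change. The count of all genes ran from 700 to 1549 with ANKRD10-1, 2617 to 3533 with ANKRD10-2, 949 to 2430 with siANKRD10-1, 694 to 1396 for ANKRD10-2 against ANKRD10-1 and 71 to 133 for WT2 against WT1. The log2 fold changes that turned ran from -0.026 to 0.052 for HK1 and -0.020 to 0.032 for PFKP with ANKRD10-1, from -0.063 to 0.003 for PGAM1 and -0.079 to 0.000 for PKM with ANKRD10-2, from -0.006 to 0.058 for HK1 and -0.007 to 0.077 for ALDOA with siANKRD10-1, from -0.020 to 0.043 for HK1 and -0.049 to 0.070 for ENO1 with siANKRD10-2, and from -0.050 to 0.022 for HK1 between the siRNAs. Between WT2 and WT1 they ran from -0.009 to 0.059 for HK1, -0.024 to 0.030 for GPI, -0.026 to 0.019 for PKM and -0.044 to 0.017 for LDHA, and between the knockout changes from -0.013 to 0.053 for HK1. None of these was called with all libraries.

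With the replicate number as a block, the count of enzymes called was 9 in KO1 and KO2, 3 with ANKRD10-1, 7 with ANKRD10-2, 2 with siANKRD10-1, 7 with siANKRD10-2, 7 for ANKRD10-2 against ANKRD10-1, where ALDOA was added (adjusted p = 0.0456), 7 between the siRNAs, 0 between the WT groups and 6 for the difference of the knockouts. The block changed no call other than those of HK1 with ANKRD10-2 and ALDOA between the plasmids. Outside the pairs named under the processing, same-numbered libraries shared only a number.

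With 3 libraries a group, several of the small changes of the overexpression experiment depended on single libraries or on the scaling, as given beside them, while ENO1 with ANKRD10-2 lost its call only under the fold rule. The sum of splice forms in the ANKRD10 count and the unsettled background of the overexpression and knockdown cells limit what each group stands for.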
